A study of Mus musculus with 3 samples.

Results

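The genes described here are 9 transcription factors that specify and maintain midbrain dopaminergic neurons (DNs): *Lmx1a*, *Lmx1b*, *Foxa1*, *Foxa2*, *Pitx3*, *Nr4a2*, *En1*, *En2* and *Otx2*. They were listed by name for their known roles in this lineage, with earlier results of these data known, out of 21755 protein-coding genes of the GENCODE M21 annotation on the 19 autosomes and chromosome X of the mouse (mm10). All accessible chromatin peaks of DNs that overlapped one of these genes or lay within 100 kb of it were collected, which gave 165 of 55326 peaks. Of these, 63 touched the gene itself and 102 lay only in the flanks.

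The study mapped open chromatin by single-nucleus ATAC-seq (snATAC-seq), in which a transposase cuts accessible DNA inside isolated nuclei. The DN group came from frozen midbrain ventral tegmental area (VTA) of male C57Bl/6Nl mice without a transgene or treatment, with replicate 1 aged 7 weeks and replicate 2 aged 9 weeks. The authors chose the DN nuclei as 1 cluster by accessibility scores around *Th*. They also looked at additional markers of it, with *Lmx1b*, *Foxa2*, *Foxa1* and *Slc6a3* named as examples. Open chromatin at these 5 genes, 3 of which are among the 9 factors, is therefore not independent of how the nuclei were chosen. Whether others of the 9 factors were also looked at is not stated. The labels also list a sample of mouse embryonic stem cells, which was not analysed here.

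Both DN libraries were pooled into 1 list of positions. Each peak is 500 bp wide and carries no height, count or score, so a value below is a number of peaks and has neither a spread between replicates nor a p-value. The depth behind the calls is not in the list, and a stretch without a peak is one where no peak was called. All 4 DN markers had peaks in the gene body, against 63.8% of protein-coding genes, a list too short to set apart from that share by presence alone. There were 18 in *Ddc* and 8 in *Slc18a2*, and 10 in *Th* and 2 in *Slc6a3*, which the choice of nuclei had used. Peaks were also called in 1 of 4 oligodendrocyte, 2 of 3 astrocyte, 2 of 3 microglial, 2 of 3 GABAergic and 1 of 2 glutamatergic marker genes, and these lists are as short. The oligodendrocyte genes *Olig2*, *Sox10* and *Mog* and the pluripotency genes *Nanog* and *Pou5f1* had none.

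During development these factors act in sequence. OTX2 marks the forebrain and midbrain up to the border with the hindbrain, and the engrailed proteins EN1 and EN2 are made on both sides of that border. FOXA1 and FOXA2, forkhead proteins that can bind closed chromatin, and the LIM-homeodomain proteins LMX1A and LMX1B specify the floor plate progenitors of DNs. The nuclear receptor NR4A2 and the homeodomain protein PITX3 then switch on the genes that make and transport dopamine. Several of the factors stay active in the adult, where they keep up dopaminergic identity and survival, and OTX2 remains in a subset of VTA neurons.

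Stretches of 7 peaks are printed first, because they show which DNA was open at these genes. All are 5′ to 3′ on the strand of the gene, were read from GRCm38, which has the chromosome sequences of mm10, and hold no annotated exon. In the first 5 stretches, capitals mark short recognition words of the factors themselves, searched on both strands. Forkhead proteins recognize TGTTTAC, which reads GTAAACA on the opposite strand, and TATTTAC, which reads GTAAATA there. LMX1 and engrailed homeodomains recognize TAATTA, which is its own reverse complement. OTX2 and PITX3 recognize TAATCC, which reads GGATTA on the opposite strand. A match is a description of the letters and not a bound site.

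The promoter peak of *En1* (chr1:120602185-120602270, plus strand) is shown because it holds GGATTA, the word of OTX2 and PITX3, 193 bp upstream of the TSS.
En1 promoter peak: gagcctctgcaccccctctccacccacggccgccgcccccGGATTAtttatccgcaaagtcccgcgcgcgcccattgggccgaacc

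*Foxa1* is shown because 2 of its peaks hold the word of its own protein family. One overlaps the TSS at 57546121 and holds the word 131 bp upstream of it (chr12:57546206-57546265, minus strand). The stretch is still inside the gene body, because a non-coding transcript of *Foxa1* starts farther out, at 57546916, and the stretch lies in its intron. The other lies beyond the end of the gene (chr12:57538449-57538535, minus strand).
Foxa1 promoter peak: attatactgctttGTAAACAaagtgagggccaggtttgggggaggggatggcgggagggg
Foxa1 downstream peak: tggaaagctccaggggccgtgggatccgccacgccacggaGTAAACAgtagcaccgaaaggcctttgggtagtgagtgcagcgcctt

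For *Lmx1b*, a stretch of an intronic peak (chr2:33585259-33585424, minus strand) is given that holds 3 different words, and for *Otx2* the part of its promoter peak (chr14:48667645-48667819, minus strand) with TAATTA 270 bp upstream of the TSS.
Lmx1b intronic peak: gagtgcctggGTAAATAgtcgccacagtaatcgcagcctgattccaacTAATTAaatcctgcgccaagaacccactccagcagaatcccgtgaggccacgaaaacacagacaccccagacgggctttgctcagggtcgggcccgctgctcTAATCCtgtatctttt
Otx2 promoter peak: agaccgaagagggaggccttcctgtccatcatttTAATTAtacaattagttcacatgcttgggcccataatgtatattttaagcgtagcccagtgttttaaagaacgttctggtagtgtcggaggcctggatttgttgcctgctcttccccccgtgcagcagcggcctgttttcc

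*Nr4a2* is shown for the contrast between stretches of the peaks at its outer TSS (chr2:57124007-57124106, minus strand) and at an internal one (chr2:57113290-57113389, minus strand), where capitals mark CpG dinucleotides. The outer stretch lies next to its TSS at 57124003. The internal one lies inside the gene body, and annotated exon sequence separates it from its TSS at 57113072. They are therefore not matched parts of 2 promoters. The outer stretch has 85.0% G and C and 20 CpGs, the internal one 41.0% and 0.
Nr4a2 outer promoter peak: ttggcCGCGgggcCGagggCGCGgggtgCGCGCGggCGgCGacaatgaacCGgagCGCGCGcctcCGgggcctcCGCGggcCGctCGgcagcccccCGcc
Nr4a2 internal promoter peak: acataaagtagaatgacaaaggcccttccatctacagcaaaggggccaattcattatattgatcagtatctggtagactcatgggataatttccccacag

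Accessible chromatin was called at each of the 9 genes. All 9 had at least 1 peak in the gene body, against 63.8% of protein-coding genes, and all 9 had a peak centred at most 1 kb from an annotated TSS, against 56.4%. A peak somewhere in the gene body or within 100 kb is common (87.6% of protein-coding genes), so its presence at all 9 says little about them. The number of peaks in the gene body ranged from 2 in *Otx2* to 28 in *Lmx1b*, and with 100 kb on each side from 2 to 58.

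**Figure D1:**
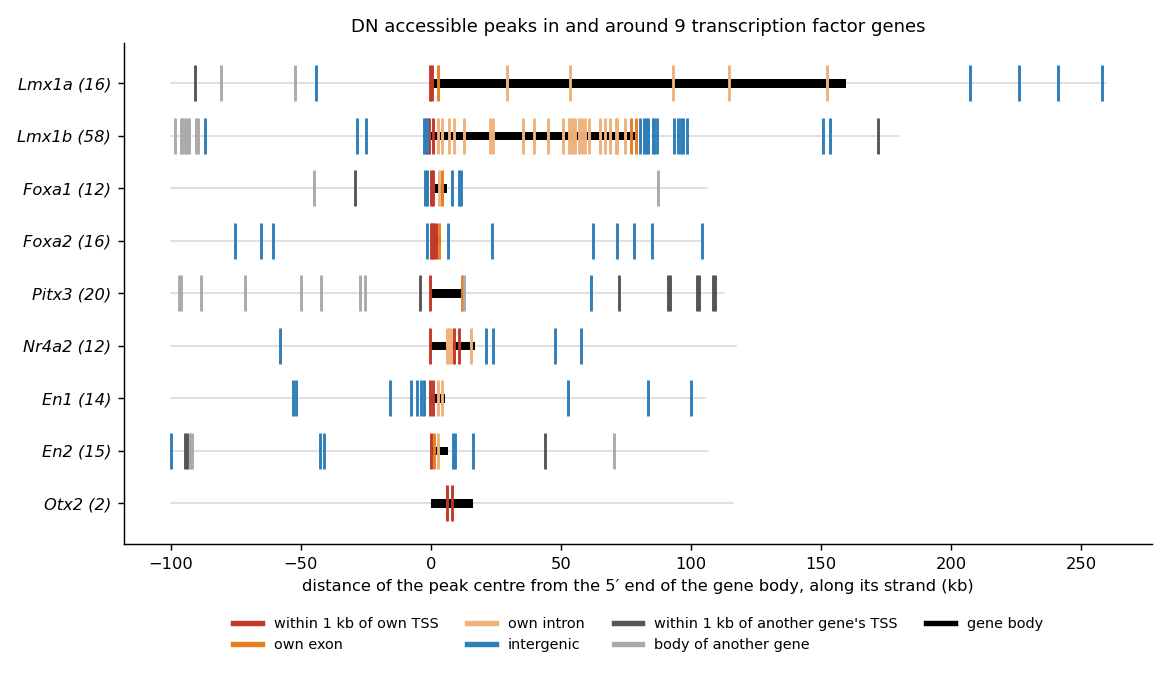
Each row is 1 gene, with the number of peaks in brackets, and each vertical line is the centre of 1 DN peak at its distance in kb from the 5′ end of the gene body along the strand of the gene. The black bar is the gene body, the grey line runs 100 kb beyond it, and colours give the annotation at the centre of the peak. Intergenic means between protein-coding genes. *Lmx1b* is filled with intronic peaks, *Pitx3* has mostly grey peaks that belong to its neighbours, and *Otx2* has 2 peaks in its body and none around it.

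Because longer genes hold more peaks, each count was compared with those of the 500 protein-coding genes closest in length, and given as a percentile (the share of these genes with fewer peaks, with ties counted at 50%). In the gene body the 9 genes had a median percentile of 95.6, against 45.7 over all protein-coding genes. *Lmx1b*, *Foxa2*, *Nr4a2*, *Foxa1* and *En1* lay above the 95th percentile, which is 5 of 9 genes against 4.87% of protein-coding genes. This count was 3 of 9, without *Foxa1* and *En1*, when peaks were counted by their centre (5.06% of protein-coding genes) or when only genes with a TSS peak were compared (5.01% of these). *Lmx1b*, *Foxa2* and *Foxa1* were among the markers the authors named for the DN cluster, so their counts are not independent of the choice of nuclei. *En1* (95.6) and *Foxa1* (96.0) lay just inside this limit and *En2* (92.3) and *Pitx3* (89.4) just outside it. When the window took in 100 kb on each side, the median fell to 73.2, against 50.2 for all genes, and only *Lmx1b* stayed above the 95th percentile, against 5.11% of protein-coding genes. Set against reference genes with a TSS peak of their own, the median of the windows was 51.1, near the 50.0 of all such genes, and 1 of 9 lay above the 95th percentile, against 4.95% of them. In the flanks alone, *Lmx1b* was again the 1 gene above it, against 5.02%.

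**Figure D2:**
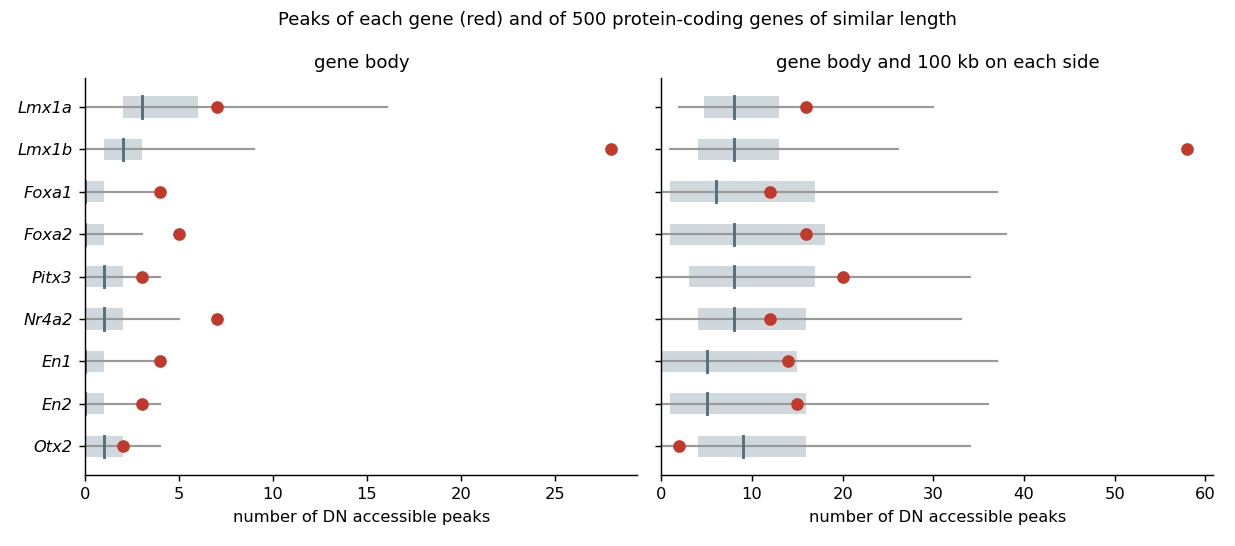
Red points give the number of DN peaks in the body of each gene (left) and in the body with 100 kb on each side (right). Grey boxes span the middle 50% of 500 protein-coding genes of similar length, the vertical mark is their median and the line runs from their 5th to their 95th percentile. *Lmx1b* lies far to the right in both panels, 8 of the 9 points lie to the right of the boxes on the left, and on the right *Otx2* lies below its box.

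*Lmx1b* encodes a LIM-homeodomain protein needed to form and to maintain DNs. The gene is 79.5 kb long (chromosome 2, 33560965 to 33640511, minus strand) and held 28 peaks, 25 in its introns, 2 over exons and 1 near its start. None of the 500 genes of similar length had as many. The nearest were *Lrp8* with 20 peaks and *Ddc* and *Rab6b* with 18 each, and the median was 2. Among all other protein-coding genes, 71 had at least 28 peaks in the body, and 1 of these was no longer than *Lmx1b*. In peaks per 10 kb (3.52) it ranked 10 among the 5000 genes of at least 50 kb. *Rap1gap* (4.91) ranked first.

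The accessible stretch did not end with the gene. A run of 32 peaks, each within 10 kb of the next, covered 63.8 kb and joined 20 peaks of the gene body with 12 beyond its 3′ end. Of 28345 such runs in the whole list, 21 others had at least as many peaks. A second run of 12 peaks over 27.3 kb took in the other 8 body peaks and 4 upstream ones. With 100 kb on each side the count was 58, again more than in any of the 500 genes, whose highest count was 57 and whose median was 8. At the upstream edge, 8 of the 58 peaks lay in *Mvb12b*, a gene of the endosomal sorting machinery, so they cannot be assigned to *Lmx1b* by position. The percentile stayed at 100 up to a flank of 100 kb and was 99.8 at 200 kb.

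*Lmx1a*, the paralogue that acts earlier in the floor plate, looked different. It spans 159.5 kb of chromosome 1 (167689237 to 167848741, plus strand) and held 7 peaks in its body, against 28 in *Lmx1b*, which has a shorter body. That is 0.439 peaks per 10 kb against 3.52. Of 500 genes of similar length, 113 had at least 7, which put *Lmx1a* at percentile 79.4. The leading genes of that length were *Nfasc* (40 peaks), *Gnao1* (35) and *Mvb12b* (35). Of the 7 peaks, 5 were intronic, and they lay scattered between 29263 and 152219 bp from the outer TSS. The other 2 body peaks and the nearest upstream one formed a run of 3 within 3.55 kb at the start of the gene. Upstream, 3 peaks lay in or at *Rxrg*, a retinoid X receptor gene.

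The forkhead genes are short and were densely covered. *Foxa2* is 4.09 kb long (chromosome 2, 148042877 to 148046969, minus strand) and held 5 peaks, which covered 56.2% of it. Only 7 of 500 genes of similar length had 5 or more, so *Foxa2* lay at percentile 99.1. *Cdk5r1* and *Rell2* led with 6 each. For 4 of the 5 peaks, a *Foxa2* TSS was at most 1 kb from the peak centre. All 16 peaks in its window had *Foxa2* as the gene with the nearest protein-coding TSS, and 6 of the 7 downstream peaks lay in the non-coding RNA gene *9030622O22Rik*.

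*Foxa1* is 6.29 kb long (chromosome 12, 57540628 to 57546916, minus strand) and held 4 peaks, at percentile 96.0. With 3 peaks beyond its end and 2 beyond its start they formed a run of 9 peaks over 14.3 kb. The printed downstream stretch belongs to that run. Farther out only 3 peaks were found, at *Ttc6* and in *Mipol1*. The window as a whole held 12 peaks, at percentile 64.7.

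*Nr4a2*, which encodes the nuclear receptor NURR1 that activates *Th* and other genes of dopamine handling, is 17.2 kb long (chromosome 2, 57106830 to 57124003, minus strand). It held 7 peaks, at percentile 97.4, and 16 of 500 genes of similar length had as many or more. *Fcho1* had the most, with 12. The gene has 3 annotated TSSs, and a separate peak overlapped each of them. Between the outer and the middle start lay 3 intronic peaks within 2 kb of each other. The flanks held 5 peaks, at percentile 36.4, and the nearest upstream peak lay 57.6 kb away.

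*Pitx3*, which encodes a homeodomain activator of *Th*, is 12.6 kb long (chromosome 19, 46135685 to 46148326, minus strand) and had 3 body peaks, at percentile 89.4. One of these overlapped the last bases of *Pitx3* with its centre in the neighbouring fatty acid elongase gene *Elovl3*. Another lay over the TSS with its centre 222 bp upstream. Counted by peak centres, *Pitx3* kept 1 peak in its body, at percentile 66.6. The window of *Pitx3* held 20 peaks, but 17 of them lay in or within 1 kb of the TSS of another protein-coding gene, mainly *Gbf1*, *Pprc1* and *Ldb1*. *Pitx3* had the nearest TSS for 1 of the 20. LDB1 binds LIM-homeodomain proteins such as LMX1B, and its own gene body held 3 peaks.

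The engrailed genes encode homeodomain proteins that position the border of midbrain and hindbrain and later protect DNs. *En1* is 5.58 kb long (chromosome 1, 120602418 to 120607992, plus strand) and held 4 peaks, at percentile 95.6. With 5 upstream peaks these formed a run of 9 over 20.5 kb. *En2* is 6.47 kb long (chromosome 5, 28165694 to 28172166, plus strand) and held 3 peaks, at percentile 92.3. Its run of 6 peaks over 16.8 kb extended downstream instead. Both windows lay at percentile 73.2, with 14 peaks for *En1* and 15 for *En2*. For *En1* 0 of 14 peaks and for *En2* 6 of 15 lay in or at other protein-coding genes, for *En2* these being *Insig1* and *Cnpy1*.

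*Otx2* stood apart from the other genes. It is 16.1 kb long (chromosome 14, 48657677 to 48673819, minus strand) and held 2 peaks, at percentile 76.6, within 2.22 kb of each other. One of them overlapped the internal TSSs at 48667513 and 48667515, while the outermost TSS at 48673819 was covered by no peak. No other peak was called within 100 kb. The next ones lay 215 kb upstream and 211 kb downstream, and in the flanks *Otx2* was 1 of 3131 protein-coding genes, or 14.4%, without a peak. Its window lay at percentile 15.1, and 433 of 500 genes of similar length had at least as many peaks.

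**Figure D3:**
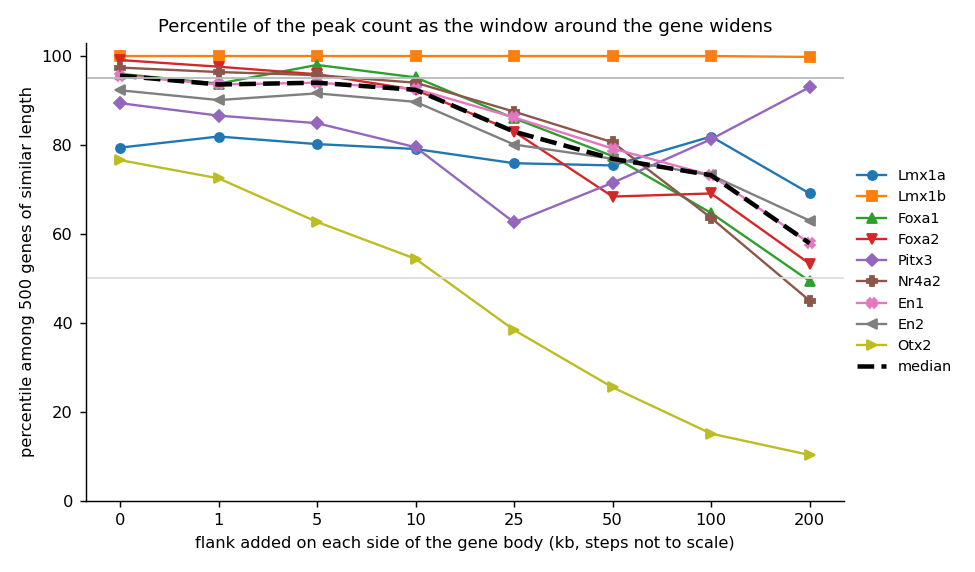
The percentile of the peak count of each gene among 500 genes of similar length is plotted against the flank added on each side of the gene body in kb, with steps not drawn to scale. The dashed line is the median of the 9 genes and grey lines mark percentiles 50 and 95. The median falls from 95.6 without a flank to 57.9 at 200 kb, *Lmx1b* stays at the top and *Otx2* falls from 76.6 to 10.3.

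With all flanking peaks counted, the percentiles fell as the window widened. The median percentile was 94.0 with a flank of 5 kb, 92.4 with 10 kb, 83.0 with 25 kb and 76.9 with 50 kb. Peaks of other protein-coding genes were left out at a flank of 100 kb only, where the median was then 93.3. There 7 genes rose and 1, *Pitx3*, fell from 81.3 to 67.7. What lies behind the fall with distance was not tested. For 51 of the 165 peaks, the centre was at most 10 kb from an own TSS. By annotation, 19 peaks lay within 1 kb of an own TSS, 7 over other own exons and 38 in own introns, of which 25 were in *Lmx1b*. Another 63 lay between protein-coding genes, some of them in non-coding RNA genes. The remaining 38 lay at the TSS or in the body of another protein-coding gene. Upstream and downstream flanks held 52 and 50 peaks.

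Few other genes lay around the 9 factors. A median of 1 other protein-coding gene reached into the window, against 5 over all genes. For 121 of the 165 peaks (73.3%) the gene with the nearest protein-coding TSS was the factor itself. Over all protein-coding genes, 21.6% of the peaks in such windows were nearest to the gene at the centre. The share was 16 of 16 for *Foxa2*, 49 of 58 for *Lmx1b*, 11 of 12 for *Nr4a2* and 8 of 15 for *En2*. The 49 of *Lmx1b* include the 8 peaks that lie in *Mvb12b*, because only the distance to a TSS was used. The number of nearest peaks lay at a median percentile of 98.4 among genes of similar length, with *Pitx3* at 45.2 and *Otx2* at 66.9 as the lowest. With peaks of other protein-coding genes left out of the flanks of every gene, the median percentile of the windows was 93.3 instead of 73.2, against 50.9 over all genes counted in this way. Then 4 of 9 instead of 1 of 9 genes lay above the 95th percentile, against 5.05% of protein-coding genes.

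Several annotated starts were not themselves covered. At *Lmx1b* the nearest peaks had their centres 702 bp upstream and 875 bp downstream of the TSS, and at *Lmx1a* 269 bp upstream of one TSS and 302 bp downstream of the other. In RefSeq promoter windows of 300 bp around a start, 8 of the 9 genes had an entry. Of their 13 windows, 10 overlapped a peak, against 38.0% of all 32619. The 1 window of *Lmx1b* did, while the *Lmx1a* window and 2 of 4 windows of *Otx2* did not.

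**Figure D4:**
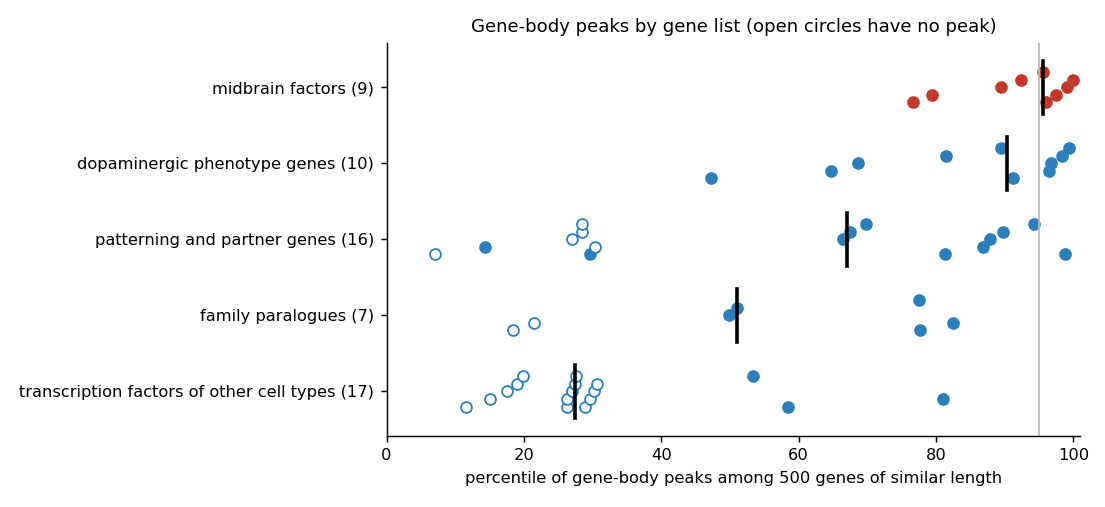
Each point is 1 gene, placed by the percentile of its gene-body peak count among 500 genes of similar length, with the number of genes in each list in brackets. Open circles are genes without a peak, black marks are medians and the grey line marks percentile 95. The midbrain factors and the dopaminergic phenotype genes lie to the right, and 14 of 17 transcription factors of other cell types have no peak.

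Other genes of the same pathway were described in the same way. Genes of the dopaminergic phenotype, many of them known targets of these factors, all had peaks (10 of 10, against 63.8% of protein-coding genes) and a median percentile of 90.3. The 63.8% covers genes of every length, and longer genes more often have a peak. Of the 500 genes closest in length to *Lmx1b* (79.5 kb), 66 had none, so presence alone says little here. The percentile allows for length. *Ddc*, the decarboxylase that makes dopamine, lay at 99.4, *Th*, the rate-limiting enzyme, at 98.4, the vesicular transporter gene *Slc18a2* at 96.8 and the receptor gene *Ret* at 96.4. *Aldh1a1* was the lowest at 47.3, with 3 peaks in 151 kb.

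Genes of midbrain patterning, neurogenesis and partner proteins had a median of 67.0. Of these, 11 of 16 had a peak, a share near the 63.8% of all protein-coding genes. *Shh*, the floor plate signal, had 4 peaks (94.3). No peak was called in *Gbx2*, *Pax2*, *Msx1*, *Msx2* and *Nkx6-1*, factors of the hindbrain side of the border or of progenitors.

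Paralogues of the same families had a median of 51.0, near the 45.7 of all genes. Peaks lay in 5 of 7 and 0 of 7 were above percentile 95, which does not set 7 genes apart from the shares of all genes (63.8% and 4.87%). *Otx1* had 2 peaks (82.4), as many as *Otx2*, and *Nr4a3* had 3 (77.7) against 7 in *Nr4a2*. *Pitx1* and the retinal factor *Crx* had none. Transcription factors of other cell types had a median of 27.5, and 3 of 17 had a peak against 63.8% of all genes, with 3 in the myeloid factor *Spi1* and 1 each in *Nkx2-2* and *Tbr1*. Many of these genes are short, and short genes more often lack a peak. Of the 500 genes closest in length to *Foxa2* (4.09 kb), 270 had none. *Gata2*, *Gata3* and *Tal1*, which specify GABAergic neurons of the midbrain, and the serotonergic factor *Fev* had none. The markers of other cell types had median percentiles of 81.0 for microglia, 75.0 for astrocytes, 39.45 for glutamatergic neurons, 34.4 for GABAergic neurons and 25.05 for oligodendrocytes, so those of microglia and astrocytes lay above the 45.7 of all genes. Their part in the values of the 9 factors was not tested.

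The open DNA around these genes was searched for the recognition words of the factors, and no share could be told from that of all DN peaks. A forkhead word was found in 15 of the 165 peaks, or 9.09% (95% exact binomial interval 5.18 to 14.6), against 12.8% of all DN peaks. TAATTA was found in 7.27% of both sets. TAATCC was found in 13.3% (8.55 to 19.5) against 13.6%, and AAGGTCA, a word for NR4A2, in 9.70% (5.64 to 15.3) against 10.0%. At least 1 word was found in 33.9% (26.8 to 41.7) against 35.8%. Each interval included the share of all peaks. TGTTTAC and TATTTAC differ in 1 letter, and TAATTA and TAATCC share their first 4. All peaks have the same length of 500 bp, and intervals cover counting error only, while neighbouring peaks share a locus.

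**Figure D5:**
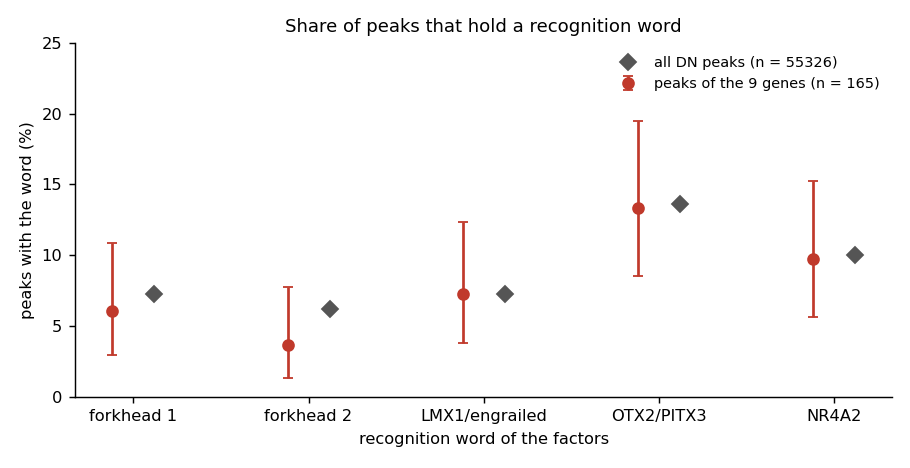
The share of peaks, in %, that hold a recognition word on either strand is shown for the 165 peaks of the 9 genes (red, with 95% exact binomial intervals) and for all 55326 DN peaks (grey diamonds). Forkhead 1 and 2 are the words TGTTTAC and TATTTAC. All 5 intervals include the grey diamond beside them.

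By gene the numbers were small. *Lmx1b* had AAGGTCA in 10 of its 58 peaks and at least 1 word in 21, and *Pitx3* had at least 1 word in 5 of 20. Both peaks of *Otx2* held TAATTA. Of the 19 peaks at own TSSs, 6 held a word, and 20.7% of all DN peaks at promoters did. The 6 include both of *Foxa1*, both of *Otx2* and 1 of *En1*, and for each of these genes a stretch of 1 of them is printed above. The other 13 held none.

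In base composition the peaks were close to all DN peaks, with 54.2% ± 8.12 G and C (SD, n = 165 peaks) against 53.3% ± 9.19 (n = 55326). Of the 165 peaks, 33 (20.0%, 95% exact binomial interval 14.2 to 26.9) had their centre at a promoter, within 1 kb of any protein-coding TSS, against 30.1% of all peaks. This pooled share leans on *Lmx1b*. Of its 58 peaks, 2 lay at its own TSS and 1 at that of another gene. The peaks at own TSSs ranged from 44.0% G and C and 6 CpGs, at the internal *Nr4a2* start, to 76.6% at the outer *Nr4a2* start, and to 75 CpGs at *Foxa1*.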

How the data were processed

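Per the labels and the methods of the study, the authors mapped snATAC-seq reads to mm10 with cellranger-atac, removed doublets and clustered nuclei in ArchR, made pseudobulk replicates and merged reproducible peaks iteratively. They deposited 1 peak list for both DN libraries. Each peak is a position only (chromosome, start, end), with no count or score. Whether a filter on the share of nuclei with a peak, which the methods mention, had been applied is not stated. Starts were read as counted from 0 and are printed counted from 1.

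Peaks were assigned to genes by an overlap of at least 1 bp, and gene bodies and TSSs came from the basic set of GENCODE M21. The 9 genes were left out of the reference genes. Promoter windows came from RefSeq on GRCm38.p6. Words were searched on both strands.

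The genes and lists were chosen with earlier results of these data known. Genes named are the 9 factors, up to 3 reference genes of similar length with the most peaks, genes that hold flanking peaks, and the genes of the lists and markers. *Rap1gap* was named after its value was seen. Alternatives were counting by centre, other numbers of reference genes, reference genes with a TSS peak, other flanks, covered base pairs and the central 200 bp of peaks. Results for a few genes of the lists and 1 sequence are not reported here. Counting was tested on simulated peaks. Python 3.11.15, numpy 2.4.6, pandas 2.3.3, scipy 1.17.1 and pysam 0.24.0 were used.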

Additional observations from a re-analysis of the deposited data

How the results depend on the processing

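No paired analysis was possible because both DN libraries are pooled in 1 list, and for the same reason leaving out a replicate could not be run. Depth per peak is unknown, and weakly open regions may have no call. The presence of a peak in the body of all 9 genes was the same under both alternatives tried, and 8 of 9 genes had a TSS peak at 500 bp or with the outer TSS alone. Set against genes of similar length that have a TSS peak of their own, the median percentile in the body was 88.2 and in the window 51.1, and 3 genes lay above percentile 95 in the body. Counting peaks by their centre also left 3, and other numbers of reference genes, 2 kb of upstream sequence or covered base pairs left 4 or 5. For the window, the median was 57.9 with a flank of 200 kb and 93.3, with 4 genes above percentile 95, once peaks of other protein-coding genes were left out of the flanks. Forkhead words were found in the central 200 bp of 3.64% of the peaks, against 6.12% of all DN peaks over the same shorter stretch, and in 7.61% of the 92 peaks within 10 kb. Of the alternatives for single genes and words, 75 were close to the main value and 45 moved. *Lmx1b* lay above percentile 99 in all of them.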

Other observations

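Some genes of the lists had few peaks in the body and many around it. *Foxa3*, a forkhead gene of liver and gut, had 2 peaks in its body and 42 with 100 kb on each side, at percentile 96.8, the 1 paralogue above percentile 95 in that window. *Wnt1*, a signal of the border of midbrain and hindbrain, had 1 and 33 (93.2).

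Among the genes of the dopaminergic phenotype, *Bdnf*, a neurotrophin gene with many starts, had 6 peaks in its body and also 6 within 1 kb of one of its starts, which are not all the same peaks. For *Th*, all 10 peaks of the window of 100 kb lay in the gene body, and the window as a whole was at percentile 62.8. *Slc6a3*, the dopamine transporter gene, had 2 peaks in the body (64.7) and 19 in the window (85.0). Of the patterning and partner genes, *Sox6*, a factor that marks a subset of DNs, had 2 peaks in 568 kb, at percentile 14.4.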
